A study of Mus musculus with 8 samples.

Results

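The values of 10 imprinted genes outside the Dlk1-Meg3 locus are described here, of 5457 genes in the authors' deposited table. They are Igf2, H19, Plagl1, Peg3, Mest, Peg10, Ndn, Sgce, Impact and Peg12, taken by their names in the table, and all 10 were found there. RNA was sequenced from cultured tdTomato-positive cells sorted from hind limb skeletal muscle of adult C57BL/6 mice, in 8 libraries that form 4 groups of 2. The Pax7_GM and Pax7_48 groups came from Pax7-CreERT2/+;R26-tdTO+ mice, and the Tw2_GM and Tw2_48 groups from Tw2-CreERT2/+;R26-tdTO+ mice. All mice received tamoxifen, which lets the Cre recombinase enter the nucleus and switch on the red fluorescent protein, so all groups share the reporter, 1 copy of a CreERT2 allele and the drug. The sorted cells are those in which the Pax7 or the Twist2 (Tw2) driver had been active, together with their descendants. GM stands for growth medium. The Tw2 titles give 48 in hours, the Pax7 titles give the number alone, and neither says in which of the described media, the growth medium or a low-serum differentiation medium, those cultures were kept.

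Genomic imprinting silences 1 parental copy of a gene through methylation marks set in the germ line. Paternally expressed genes such as Igf2, Plagl1, Peg3, Mest and Peg10 are in large part growth-promoting, while maternally expressed ones such as H19 and Cdkn1c mostly restrain growth. In the mouse many of them form a network that is highly expressed in fetal tissue and in muscle progenitors and falls after birth. In skeletal muscle Igf2 is an autocrine factor of differentiating myoblasts, and H19, transcribed next to it, is a long non-coding RNA that is abundant in embryonic and regenerating muscle. The libraries report the level of each RNA and not the parental copy it came from.

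The loci are given in the GRCm38 build, from the GENCODE annotation. Igf2 (chromosome 7, 142650766 to 142666816, minus strand) and H19 (chromosome 7, 142575529 to 142578143, minus strand) lay 72623 bases apart. Ndn (chromosome 7, 62346569 to 62350262, plus strand) and Peg12 (chromosome 7, 62461871 to 62464510, minus strand) lay 111609 bases apart. Peg10 (chromosome 6, 4747306 to 4760517, plus strand) and Sgce (chromosome 6, 4674350 to 4747207, minus strand) start 99 bases apart and are read in opposite directions. Mest was on chromosome 6 (30723547 to 30748465, plus strand), Peg3 on chromosome 7 (6703892 to 6730431, minus strand) and Plagl1 on chromosome 10 (13060504 to 13131694, plus strand). Igf2 overlaps the gene model Gm49394 on its own strand and the antisense RNA Igf2os, the end of Mest overlaps Copg2 on the other strand, and Ndn lies within the noncoding gene model Gm32061 on the other strand. The labels do not say whether reads were counted by strand, so reads of these partners cannot be told apart from those of Igf2, Mest and Ndn.

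Of the members searched, which did not include Impact, 3 carry a microRNA within their transcription unit, on the same strand. The mature sequences are shown because their hosts moved in opposite directions from GM to 48, Igf2 and, in Tw2 cells, H19 upward and Mest downward. They were taken from RefSeq (GRCm38.p6), with the seed, bases 2 to 8, in capitals. No 2 of the 6 share a seed. The microRNAs themselves were not measured.
H19, mmu-miR-675-5p: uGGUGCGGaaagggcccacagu
H19, mmu-miR-675-3p: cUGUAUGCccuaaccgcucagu
Igf2, mmu-miR-483-5p: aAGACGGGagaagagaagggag
Igf2, mmu-miR-483-3p: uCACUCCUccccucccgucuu
Mest, mmu-miR-335-5p: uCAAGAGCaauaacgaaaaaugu
Mest, mmu-miR-335-3p: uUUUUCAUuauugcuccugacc

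Promoter windows of 4 members are shown, those of Plagl1, Mest and Peg12 because these genes fell together from GM to 48, and that of Peg3 because the imprinted neighbour Usp29 starts inside the same window on the other strand. Each runs from 250 bases before to 50 bases after a RefSeq start (GRCm38.p6). Capitals mark CAGCTG, the E-box preferred by the muscle transcription factors MyoD and myogenin, and GGGGCCCC, a sequence bound by the Plagl1 protein.
Plagl1 (chr10:13090582-13090881, plus strand): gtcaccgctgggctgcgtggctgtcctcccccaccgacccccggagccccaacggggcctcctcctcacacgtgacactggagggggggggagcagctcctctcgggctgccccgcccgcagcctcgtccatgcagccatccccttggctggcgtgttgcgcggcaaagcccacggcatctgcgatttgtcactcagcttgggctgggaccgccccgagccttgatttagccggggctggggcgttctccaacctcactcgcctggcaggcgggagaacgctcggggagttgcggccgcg
Mest (chr6:30737800-30738099, plus strand): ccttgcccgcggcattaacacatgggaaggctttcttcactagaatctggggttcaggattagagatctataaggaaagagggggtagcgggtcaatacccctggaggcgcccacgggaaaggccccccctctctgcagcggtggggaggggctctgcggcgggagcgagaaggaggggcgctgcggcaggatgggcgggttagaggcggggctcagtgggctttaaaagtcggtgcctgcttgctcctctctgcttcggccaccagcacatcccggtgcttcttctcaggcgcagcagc
Peg12 (chr7:62464461-62464760, minus strand): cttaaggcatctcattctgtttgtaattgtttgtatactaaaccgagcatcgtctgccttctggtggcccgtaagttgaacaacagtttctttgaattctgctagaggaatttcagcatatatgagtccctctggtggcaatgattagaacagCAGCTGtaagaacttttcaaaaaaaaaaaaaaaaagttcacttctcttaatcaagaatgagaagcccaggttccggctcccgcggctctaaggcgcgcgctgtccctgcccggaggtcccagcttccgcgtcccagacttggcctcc
Peg3 (chr7:6730370-6730669, minus strand): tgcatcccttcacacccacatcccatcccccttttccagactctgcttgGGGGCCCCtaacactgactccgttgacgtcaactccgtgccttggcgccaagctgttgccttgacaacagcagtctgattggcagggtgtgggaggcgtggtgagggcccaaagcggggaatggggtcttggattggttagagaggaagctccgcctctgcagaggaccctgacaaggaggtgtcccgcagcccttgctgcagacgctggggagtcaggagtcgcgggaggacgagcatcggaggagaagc
Windows were found for 11 starts of 6 members (Igf2, Plagl1, Peg3, Mest, Ndn and Peg12). Impact was left out of this search, and H19, Peg10 and Sgce had no window in the reference used. CAGCTG, searched on both strands, was in 2 of these 11 windows, that of Peg12 and an upstream one of Mest, and in 16.3% of 32851 promoter windows of the same length. GGGGCCCC was in 1 of the 11, that of Peg3, and in 1.08% of all windows. The MEF2 consensus and the TATA box sequence TATAAA were in none of the 11, and in 3.69% and 13.62% of all windows. The motifs did not overlap one another in the member windows. The Plagl1 window held 26 CG dinucleotides, more than 83.1% of all promoter windows, the Mest window 17, the Peg3 window 13 and the Peg12 window 12.

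The authors deposited mean CPM (reads scaled to the size of the library) per group, and these means were taken apart into the 2 libraries behind each, called deeper and shallower because the means carry no replicate numbers. Implied library sizes ran from 5.18 to 13.7 M reads. A count of 0 would allow up to 3 reads (95% limit, counting error alone), or 0.218 to 0.579 CPM. No member was at 0, and the lowest, Peg12, had 18 reads in the shallower Pax7_48 library. The Pax7_GM libraries stood apart: the SD of the log2 ratio of the pair over all genes was 0.5, against 0.17 to 0.2 in the other groups. Nothing in the labels says that libraries came from separate mice or cultures, so the p-values measure the spread between these libraries, which may be technical. Every gene in the table differs at least 2-fold from Tw2_GM in the means of at least 1 other group, so comparisons with Tw2_GM are not independent of that selection, for the members or for the other genes. Each of the 5452 genes solved in every group also reached 10 CPM in 4 or more libraries. A gene under 10 CPM in all libraries of 1 lineage or 1 culture is therefore listed only through the other. Its direction is not independent of that.

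Markers were read first. Pax7, the satellite cell transcription factor, had a CPM of 117 and 112 in Pax7_GM and 113 and 109 in Tw2_GM, and of 9.58 and 9.95 in Pax7_48 and 13 and 12.6 in Tw2_48. Twist2 was not analysed here. Of 10 myogenic markers 7 were in the table, and the sum of their mean CPM was 3300 in Pax7_GM, 582 in Tw2_GM, 34064 in Pax7_48 and 47885 in Tw2_48. Of 7 fibro-adipogenic markers 3 (Col1a1, Col1a2 and Col3a1) summed to 888, 970, 393 and 222 CPM in the same order. In GM these collagen genes went opposite ways, with Col1a2 at 406 CPM in Pax7_GM and 3.45 in Tw2_GM and Col3a1 at 470 and 964. Of 5 pericyte and smooth muscle markers 3 summed to 755, 678, 5292 and 8444 CPM (Acta2 holding most of it, and Rgs5 at 0 in Pax7_48), and the tenocyte gene Scx, 1 of 3, to 101, 29.8, 334 and 239 CPM. Itgam, the 1 immune marker of 5, was at 0.56, 0, 13.9 and 20.4 CPM, and no endothelial, adipocyte or glial marker was in the table. The myogenic sum was thus higher at 48 than in GM in both lineages, and higher in Pax7_GM than in Tw2_GM, and its part in the results below was not tested. In RNA of whole cultures, fewer cells of a type and less RNA per cell cannot be told apart.

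Igf2, which encodes the insulin-like growth factor that acts through the Igf1 receptor, was the second most abundant member per length at 48 and rose from GM to 48 in both lineages. Its CPM was 901 and 931 in Pax7_GM (deeper library first, here and below) and 5519 and 5408 in Pax7_48. In Tw2 cells it stood at 772 and 690 CPM in GM and at 7464 and 7225 CPM at 48. All 48 libraries were far above all GM libraries, and within each culture the lineages did not overlap either, with Tw2 the lower in GM and the higher at 48. The log2 change was 2.58 ± 0.12 in Pax7 cells (SE, the standard error, with 2 libraries in each group, limma adjusted p = 4.97e-07) and 3.33 ± 0.12 in Tw2 cells (adjusted p = 6.65e-08), 5.97-fold and 10.0-fold in the means. Both changes kept their direction and call under size factors (2.82 and 3.79) and under quantile normalization (1.6 and 2.56). They did so too after removal of the trend in GC content and length (2.51 and 2.96). These scalings and the trend were computed over the genes of the deposited table alone. The rise was larger in Tw2 cells by 0.75 ± 0.18 (adjusted p = 0.0222), and this call was lost with the GC and length trend removed (0.46, adjusted p = 0.11) and without either Pax7_48, Tw2_GM or Tw2_48 library (0.67 to 0.83, adjusted p = 0.0618 to 0.103).

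The lineage difference of Igf2 within a culture was small and had no settled direction. Tw2_GM was lower than Pax7_GM by a log2 difference of −0.33 ± 0.12 (limma adjusted p = 0.0415), which became 0.34 with the GC and length trend removed and −1.2 with size factors. Tw2_48 was higher than Pax7_48 by 0.43 ± 0.12 (adjusted p = 0.0168), which became −0.23 with size factors and was not called under quantile normalization (0.19), while removal of the trend gave 0.8 (adjusted p = 0.00165). Without 1 Tw2_GM library or 1 library of either 48 group the GM call was lost (adjusted p = 0.0671 to 0.23), and without 1 library of either 48 group so was the 48 call (0.4 to 0.45, adjusted p = 0.0671 to 0.1).

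H19, the maternally expressed RNA downstream of Igf2, was the member with the most reads in every group and also the highest per length. Its CPM was 7878 and 6213 in Pax7_GM, 10108 and 10383 in Tw2_GM, and 34659 and 35404 in Tw2_48. In Pax7_48 the deposited mean was 30416 CPM, which can come from 4 different pairs of read counts, so this group was left out of the fit of H19. All libraries of Tw2_48 were above all GM libraries, and the Tw2_GM libraries were above those of Pax7_GM. H19 made up 3.5% of the implied library of Tw2_48 by the deposited mean and 3.04% of that of Pax7_48, against 1.02% in Tw2_GM and 0.705% in Pax7_GM.

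In Tw2 cells H19 rose by a log2 change of 1.77 ± 0.15 (limma adjusted p = 2.23e-05, 3 residual degrees of freedom), 3.42-fold in the means. Quantile normalization set that change to 0.0, because H19 is the highest listed gene in those libraries and that method gives the highest gene 1 common value. In Pax7 cells the deposited means differed 4.32-fold. Of the 4 possible pairs for Pax7_48, 1 (28902 and 31929 CPM, log2 ratio −0.14) fell within the range of log2 ratios seen in 1094 other genes of at least 100 CPM (−0.5 to 0.53), and it gives a Pax7 change of 2.12 ± 0.15 (adjusted p = 3.41e-06). With that pair Tw2_48 and Pax7_48 differed by 0.21 ± 0.15 (adjusted p = 0.249). The other 3 pairs, with log2 ratios of −5.85, −2.29 and −1.07, give 0.17 (adjusted p = 0.919), 1.71 (adjusted p = 0.0264) and 2.02 (adjusted p = 0.000324). In GM, H19 was higher in Tw2 cells by 0.55 ± 0.15 (adjusted p = 0.0142), a call that turned to −0.32 under size factors and was 1.59 (adjusted p = 2.12e-05) after removal of the GC and length trend. The call was lost under quantile normalization (0.24), with any of those 3 other pairs (adjusted p = 0.133 to 0.748) and without either Tw2_GM library (adjusted p = 0.0609 and 0.0723). The first of those 3 pairs also ended the call of the Tw2 change (adjusted p = 0.284).

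The balance of Igf2 to H19 can be read within each library, where library scaling cancels. The CPM ratio of Igf2 over H19 was 0.114 and 0.15 in Pax7_GM, 0.0764 and 0.0664 in Tw2_GM, and 0.215 and 0.204 in Tw2_48, and the deposited means gave 0.18 in Pax7_48. The ratio was lowest in both Tw2_GM libraries and highest in both Tw2_48 libraries, with no overlap between these 3 groups. Per kilobase of the longest annotated transcript, H19 was at 15324 CPM and Igf2 at 1555 in Tw2_48 by the deposited means.

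**Figure D1:**
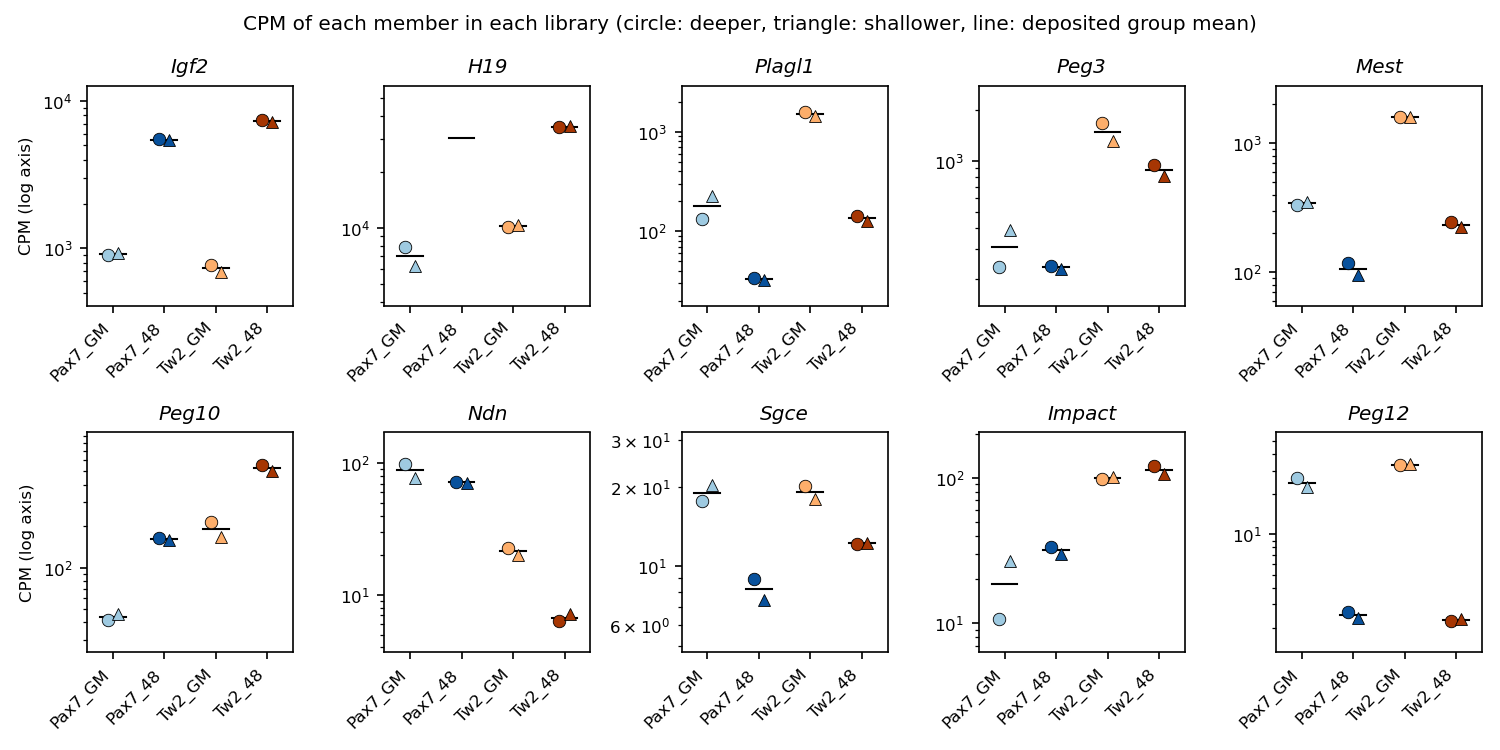
CPM (log axis, scaled per panel) of each of the 10 imprinted genes in the 4 groups, with a circle for the deeper and a triangle for the shallower library and a line at the deposited group mean. Igf2 and H19 stand highest in the 48 groups, Plagl1, Mest and Peg12 stand highest in the GM group of each lineage, and H19 in Pax7_48 has the deposited mean alone (30416 CPM).

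Plagl1 encodes a zinc finger transcription factor that in the mouse activates Igf2, H19 and other genes of the imprinted network. It was far higher in Tw2 cells and fell from GM to 48 in both lineages. Its CPM was 134 and 227 in Pax7_GM and 34.2 and 32.5 in Pax7_48, against 1576 and 1430 in Tw2_GM and 143 and 127 in Tw2_48. The 2 Tw2_GM libraries stood above all others, the 2 Pax7_48 libraries stood below all others, and the shallower Tw2_48 library lay below both Pax7_GM libraries. The log2 difference of Tw2 over Pax7 cells was 3.10 ± 0.23 in GM (limma adjusted p = 3.14e-05) and 1.99 ± 0.23 at 48 (adjusted p = 0.000489), 8.32-fold and 4.05-fold in the means. Plagl1 fell at 48, with a log2 change of −2.35 ± 0.23 in Pax7 cells (adjusted p = 2.31e-05) and −3.47 ± 0.23 in Tw2 cells (adjusted p = 1.7e-06), while Igf2 and, in Tw2 cells, H19 rose. These 4 calls held with both scalings and with the GC and length trend removed, where the GM difference was 2.67. The difference between the 2 falls was −1.11 ± 0.32 (adjusted p = 0.0484). That call did not hold under size factors (−0.89, adjusted p = 0.0765), with a pseudocount of 0.5 (−1.1, adjusted p = 0.0563) and without either Pax7_48, Tw2_GM or Tw2_48 library (−1.2 to −1.03, adjusted p = 0.112 to 0.171).

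Mest, which encodes a membrane protein of the hydrolase family, fell at 48 in both lineages and was higher in Tw2 cells. It had a CPM of 333 and 353 in Pax7_GM, 118 and 94.7 in Pax7_48, 1609 and 1605 in Tw2_GM and 244 and 223 in Tw2_48. No 2 groups overlapped, and Tw2_48 lay between the Pax7 groups. The log2 difference of Tw2 over Pax7 cells was 2.23 ± 0.15 in GM (limma adjusted p = 1.63e-05) and 1.14 ± 0.15 at 48 (adjusted p = 0.000737). From GM to 48 its log2 change was −1.69 ± 0.15 in Pax7 cells (adjusted p = 1.14e-05) and −2.78 ± 0.15 in Tw2 cells (adjusted p = 4.21e-07), 3.22-fold and 6.87-fold in the means. The fall was larger in Tw2 cells, at −1.09 ± 0.21 (adjusted p = 0.00957), which missed the threshold without the deeper Tw2_GM library (adjusted p = 0.0502) or the shallower Tw2_48 library (adjusted p = 0.0572).

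Peg3, a zinc finger protein used as a marker of adult stem and progenitor cells, had a CPM of 234 and 387 in Pax7_GM and 240 and 230 in Pax7_48, and of 1666 and 1299 in Tw2_GM and 939 and 815 in Tw2_48. Every Tw2 library was above every Pax7 library, and the Tw2 groups did not overlap each other. The log2 difference of Tw2 over Pax7 cells was 2.28 ± 0.24 in GM (limma adjusted p = 0.000117) and 1.89 ± 0.24 at 48 (adjusted p = 0.000693), called also with both scalings and the trend removed. From GM to 48 it fell by 0.75 ± 0.24 in Tw2 cells (adjusted p = 0.0172), a call that did not hold under size factors (−0.29, adjusted p = 0.243) and without the deeper Tw2_GM or the shallower Tw2_48 library (adjusted p = 0.119 and 0.0971). In Pax7 cells the change was −0.36 ± 0.24 (adjusted p = 0.199), and it was 0.0 or −0.72 (adjusted p = 0.0014) according to which Pax7_GM library was left out.

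The genes on either side of Peg3 were read with it, as they belong to the same imprinted cluster. Usp29 starts 147 bases from Peg3 on the other strand, and Zim1 lies 7442 bases away. Zim1 had a CPM of 9.35 and 21.8 in Pax7_GM against 120 and 69.7 in Tw2_GM, and of 29.2 and 27.5 in Pax7_48 against 136 and 115 in Tw2_48. Its log2 difference of Tw2 over Pax7 cells was 2.59 ± 0.37 in GM (limma adjusted p = 0.000373) and 2.11 ± 0.37 at 48 (adjusted p = 0.0022). Usp29 was higher as well, at 1.06 ± 0.19 in GM (adjusted p = 0.00117) and 1.56 ± 0.19 at 48 (adjusted p = 0.00063), although the GM difference was −0.07 with the GC and length trend removed. Usp29 had a CPM of 3.93 and 5.4 in Pax7_GM and 3.76 and 2.49 in Pax7_48. It had 11.3 and 10.2 in Tw2_GM and 10.8 and 11.2 in Tw2_48. It reached 10 CPM in the Tw2 libraries alone, so it is in the table only through them and its direction was fixed by that. Peg3 and Zim1, which reached 10 CPM in Pax7 libraries too, were higher in Tw2 cells in both cultures as deposited.

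Peg10, a gene derived from a retrotransposon and needed for placental growth in the mouse, rose at 48 and was higher in Tw2 cells. Its CPM was 41.5 and 46.1 in Pax7_GM, 163 and 159 in Pax7_48, 215 and 166 in Tw2_GM and 559 and 504 in Tw2_48. The Pax7_GM libraries were lowest and the Tw2_48 libraries highest. Both Tw2_GM libraries lay above those of Pax7_48, the shallower one only just. The log2 difference of Tw2 over Pax7 cells was 2.09 ± 0.16 in GM (limma adjusted p = 3.38e-05) and 1.72 ± 0.16 at 48 (adjusted p = 0.000202). From GM to 48 it rose by 1.86 ± 0.16 in Pax7 cells (adjusted p = 1.05e-05) and 1.48 ± 0.16 in Tw2 cells (adjusted p = 3.27e-05), and the difference of these rises was −0.37 (adjusted p = 0.245).

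Sgce, which encodes epsilon-sarcoglycan of the dystrophin-associated complex and starts next to Peg10, did not follow it. It had a CPM of 17.6 and 20.3 in Pax7_GM, 8.93 and 7.46 in Pax7_48, 20.1 and 18 in Tw2_GM and 12.1 and 12.2 in Tw2_48. The GM groups overlapped and both 48 groups lay below them. Its log2 change was −1.12 ± 0.14 in Pax7 cells (limma adjusted p = 0.000125) and −0.60 ± 0.14 in Tw2 cells (adjusted p = 0.00399), and the second call did not hold under size factors (−0.17), quantile normalization (−0.22) or trend removal (−0.28). Its lineage difference had no stable direction. In GM it was 0.01 ± 0.14 as deposited (adjusted p = 0.956). Size factors gave −0.81, quantile normalization −0.49 and trend removal −1.48, and these 3 values were called. At 48 it was 0.52 ± 0.14 as deposited (adjusted p = 0.0133) and −0.4 with the trend removed (adjusted p = 0.0443). The first of these was not called under size factors (−0.08) or quantile normalization (0.19), nor without the shallower Pax7_48 library or either Tw2_48 library (0.41 to 0.53, adjusted p = 0.0674 to 0.103). The difference of its changes was 0.51 ± 0.2 (adjusted p = 0.113), and it was called under either scaling or after removal of the trend (0.68 to 1.08) and without the deeper Pax7_GM library (0.61, adjusted p = 0.0266). The Sgce transcript is the GC-poorest of the members at 38.4%, against 57% in Peg12 and a median of 48.7% over the table.

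Within a library the ratio of Peg10 over Sgce was 2.35 and 2.28 in Pax7_GM and 18.3 and 21.3 in Pax7_48, and it was 10.7 and 9.26 in Tw2_GM and 46.2 and 41.2 in Tw2_48. The 4 groups did not overlap, and the ratio was higher at 48 in each lineage and higher in Tw2 cells in each culture. These ratios do not depend on library scaling, though a trend with GC content would still act on them.

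Ndn, which encodes necdin, a protein of the MAGE family that restrains proliferation, was the 1 member clearly lower in Tw2 cells. It had a CPM of 99.2 and 77.2 in Pax7_GM and 72.1 and 71 in Pax7_48, against 22.7 and 20.1 in Tw2_GM and 6.33 and 7.13 in Tw2_48. Every Tw2 library was below every Pax7 library. The log2 difference of Tw2 minus Pax7 cells was −1.99 ± 0.16 in GM (limma adjusted p = 4.05e-05) and −3.23 ± 0.16 at 48 (adjusted p = 2.1e-05), 4.12-fold and 10.6-fold lower in the means. It was called lower under both scalings and with the trend removed, at −2.82 to −2.59 in GM and −3.86 to −3.42 at 48. From GM to 48 it fell by 1.53 ± 0.16 in Tw2 cells (adjusted p = 2.52e-05), and in Pax7 cells the change was −0.29 ± 0.16 (adjusted p = 0.124), or −0.47 (adjusted p = 0.00677) without the shallower Pax7_GM library. The changes of the 2 lineages differed by −1.25 ± 0.22 (adjusted p = 0.00743), and the range without each library in turn was −1.42 to −1.07.

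Peg12, an intronless gene of the same imprinted region whose protein resembles the GSK-3-binding protein FRAT, had the largest fall in the deposited means of both lineages. It had a CPM of 26.3 and 22.6 in Pax7_GM and 2.63 and 2.36 in Pax7_48, and of 32.8 and 33.6 in Tw2_GM and 2.26 and 2.34 in Tw2_48. Both 48 groups were low, with 18 to 31 reads per library, and the Tw2_48 libraries lay just below those of Pax7_48. Peg12 reached 10 CPM in the GM libraries alone, so it is in the table only through them. That it fell in both lineages was fixed by this. Peg12 fell by a log2 change of −2.86 ± 0.13 in Pax7 cells (limma adjusted p = 3.89e-07) and −3.37 ± 0.13 in Tw2 cells (adjusted p = 7.96e-08), 9.8-fold and 14.4-fold in the means. At these levels the pseudocount of 1 makes the log2 change smaller than the change of the CPM. Its lineage difference in GM, 0.43 ± 0.13 (adjusted p = 0.0169), turned to −0.41 under size factors and to −0.15 under quantile normalization, and was 1.42 (adjusted p = 3.11e-05) after trend removal. Its call was lost without either Tw2_GM library (adjusted p = 0.0683 and 0.0833). At 48 it was −0.08 ± 0.13 (adjusted p = 0.598), −0.56 with size factors (adjusted p = 0.00835) and 0.54 with the trend removed (adjusted p = 0.00559).

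The ratio of Ndn over Peg12 within a library was 3.77 and 3.42 in Pax7_GM, 27.4 and 30.1 in Pax7_48, 0.692 and 0.599 in Tw2_GM, and 2.81 and 3.05 in Tw2_48. It was lowest in the Tw2_GM libraries, where Peg12 exceeded Ndn, and highest in the Pax7_48 libraries, and no 2 groups overlapped. Ndn did not rise from Pax7_GM to Pax7_48 or from Tw2_GM to Tw2_48, so the ratio rose there through Peg12 alone. The fall of Peg12 was fixed by its listing through the GM libraries, and the rise of the ratio is not independent of that. A trend with GC content would also act on this ratio, with Ndn at 44.5% and Peg12 at 57.0%.

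**Figure D2:**
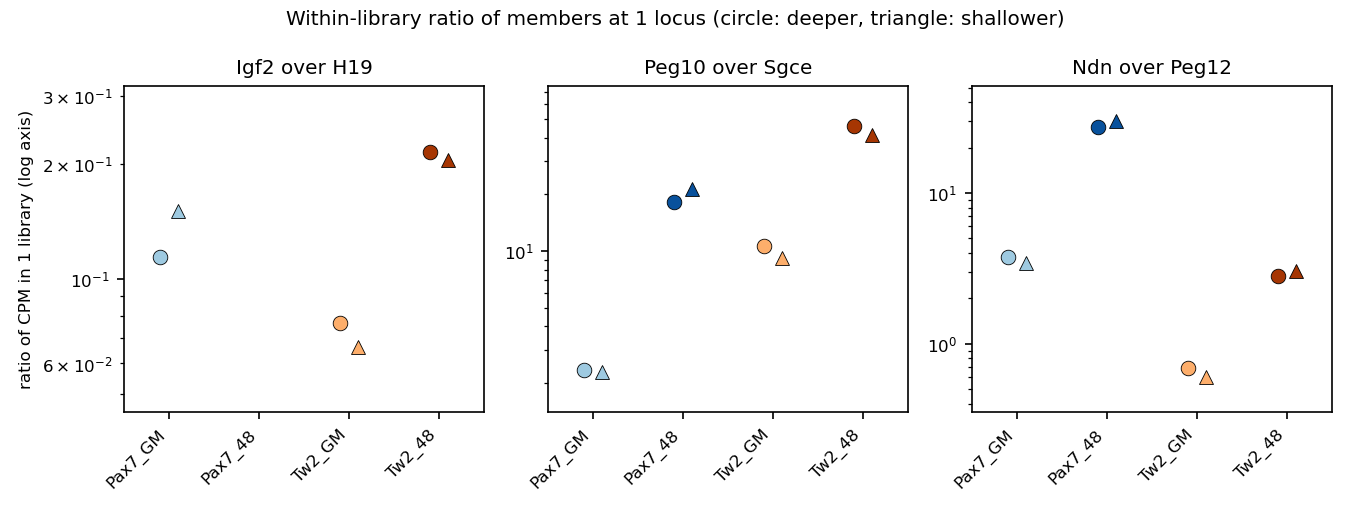
Ratio of CPM of 2 members of a locus within each library (log axis), for Igf2 over H19, Peg10 over Sgce and Ndn over Peg12, with a circle for the deeper and a triangle for the shallower library. Igf2 over H19 has no library values in Pax7_48, and Ndn over Peg12 runs from 0.599 in Tw2_GM to 30.1 in Pax7_48.

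Impact (chromosome 18, 12955852 to 12992950, plus strand), which encodes an inhibitor of the translation-control kinase Gcn2, was higher in Tw2 cells. Its CPM was 10.7 and 26.6 in Pax7_GM, 33.7 and 30 in Pax7_48, 97.6 and 102 in Tw2_GM, and 121 and 107 in Tw2_48. All Tw2 libraries were above all Pax7 libraries, and the 2 Pax7_GM libraries differed more than its other pairs. The log2 difference of Tw2 over Pax7 cells was 2.49 ± 0.34 in GM (limma adjusted p = 0.000296) and 1.80 ± 0.34 at 48 (adjusted p = 0.00277), and 1.48 and 1.2 with the GC and length trend removed, both still called. Without 1 library at a time the GM difference ran from 1.87 to 3.11. In Pax7 cells it rose by 0.87 ± 0.34 (adjusted p = 0.0415). This was 1.49 without the shallower Pax7_GM library. It became 0.25 (adjusted p = 0.113) without the deeper one, and it lost its call without any 1 library of the other 3 groups too (adjusted p = 0.0621 to 0.154). In Tw2 cells the change was 0.18 ± 0.34 (adjusted p = 0.625), or 0.66 with the trend removed (adjusted p = 0.0221). The difference of the 2 changes was −0.68 (adjusted p = 0.306), and it became −1.3 (adjusted p = 0.000115) without the shallower Pax7_GM library.

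Between the lineages in GM, 9 of the 10 members were called, 7 higher and 2 lower in Tw2 cells, where 74.7% of all 5457 genes were called, 48.7% higher and 26% lower. The median log2 difference was 1.32 over the members and 0.34 over all genes. At 48, 8 of 9 members were called, 7 higher and 1 lower, against 65.5% of 5452 genes (43.3% higher, 22.1% lower), with medians of 1.14 and 0.27. As shares, the counts called in either direction were above those of the table, in a set of at most 10 genes, and this was not tested. In fits of the compared groups alone the GM calls of Igf2, H19 and Peg12 were lost (adjusted p = 0.146, 0.0506 and 0.0784), as was the call of Impact in Pax7 cells (adjusted p = 0.0843). Size factors shifted the median over the table by −0.84 in GM and −0.63 at 48. In GM 5 members were then higher and 4 lower, against 1393 and 2944 of all 5457 genes. At 48 5 were higher and 2 lower, against 944 and 2634 of 5452 genes. Plagl1, Peg3, Mest, Peg10 and Impact were called higher and Ndn lower in Tw2 cells in both cultures on the deposited scale, under both scalings and after removal of the trend. Over the whole table the lineage difference went with GC content. In GM the median log2 difference was 1.81 in the GC-poorest of 5 classes and −0.37 in the GC-richest. At 48 these medians were 1.17 and −0.27. The 6 members just named, Ndn at 44.5% included, had a GC content of 42.1 to 47.4%.

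**Figure D3:**
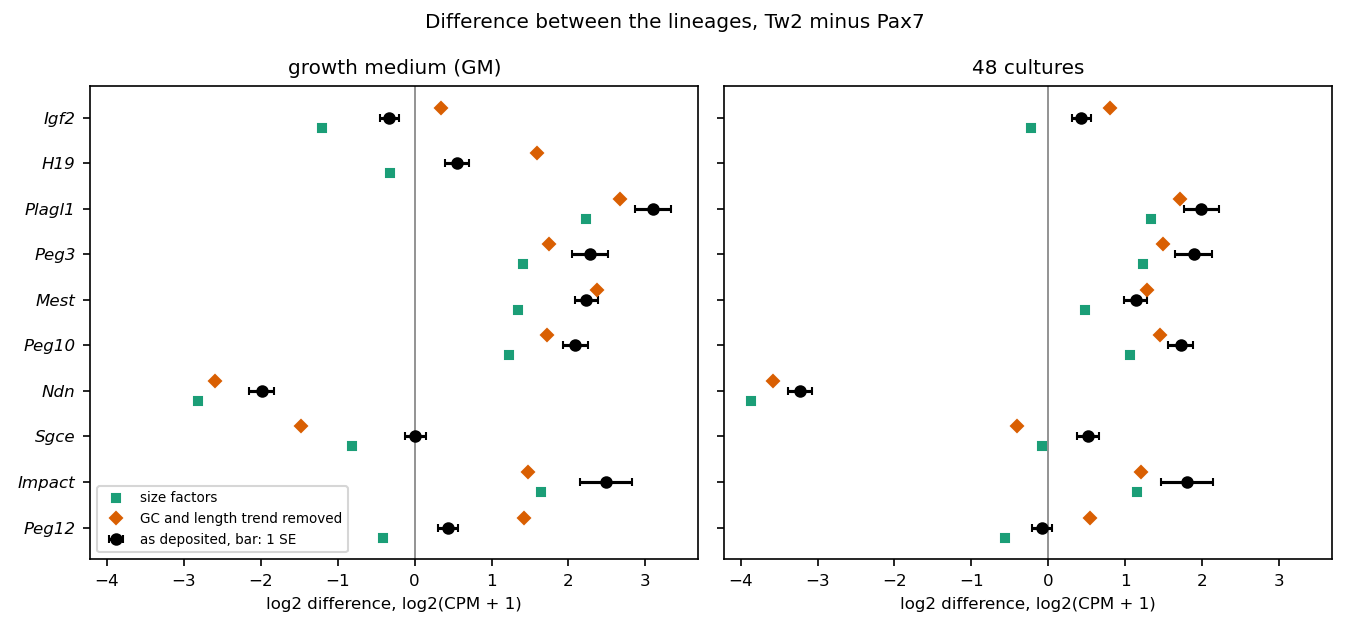
Log2 difference of Tw2 minus Pax7 cells, on log2(CPM + 1), of each member in GM (left) and at 48 (right), with 1 SE for the deposited scale (circles) and without error bars for size factors (squares) and for the GC and length trend removed (diamonds). Plagl1, Peg3, Mest, Peg10 and Impact stay right of 0 and Ndn left of 0 on all 3 scales, while Igf2, Sgce and Peg12 change sides, as does H19 in GM, and H19 has no value at 48.

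From GM to 48, 7 of 9 members were called in Pax7 cells, 3 higher and 4 lower, against 79.2% of 5453 genes (38.8% higher, 40.5% lower), with medians of −0.36 and 0.01. In Tw2 cells 9 of 10 were called, 3 higher and 6 lower, against 84.2% of 5456 genes (35.3% higher, 48.8% lower), with medians of −0.68 and −0.49. These shares are near those of the table. In both lineages Igf2 and Peg10 were called higher and Plagl1, Mest, Sgce and Peg12 lower, and no member was called in opposite directions, against 23 of the 5452 genes tested in both. Peg12 is in the table only through the GM libraries, so the direction of its change was fixed by its listing. For the difference between the 2 changes 4 of 9 members were called, Igf2 higher and Plagl1, Mest and Ndn lower, against 18.7% of 5452 genes (9.72% higher, 9.01% lower), with medians of −0.51 and −0.22. That count went from 1 to 6 when 1 library was left out at a time: it was 1 without the deeper Tw2_GM or the shallower Tw2_48 library and 2 without the other library of either group or either Pax7_48 library, and it was 6 without either Pax7_GM library.

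**Figure D4:**
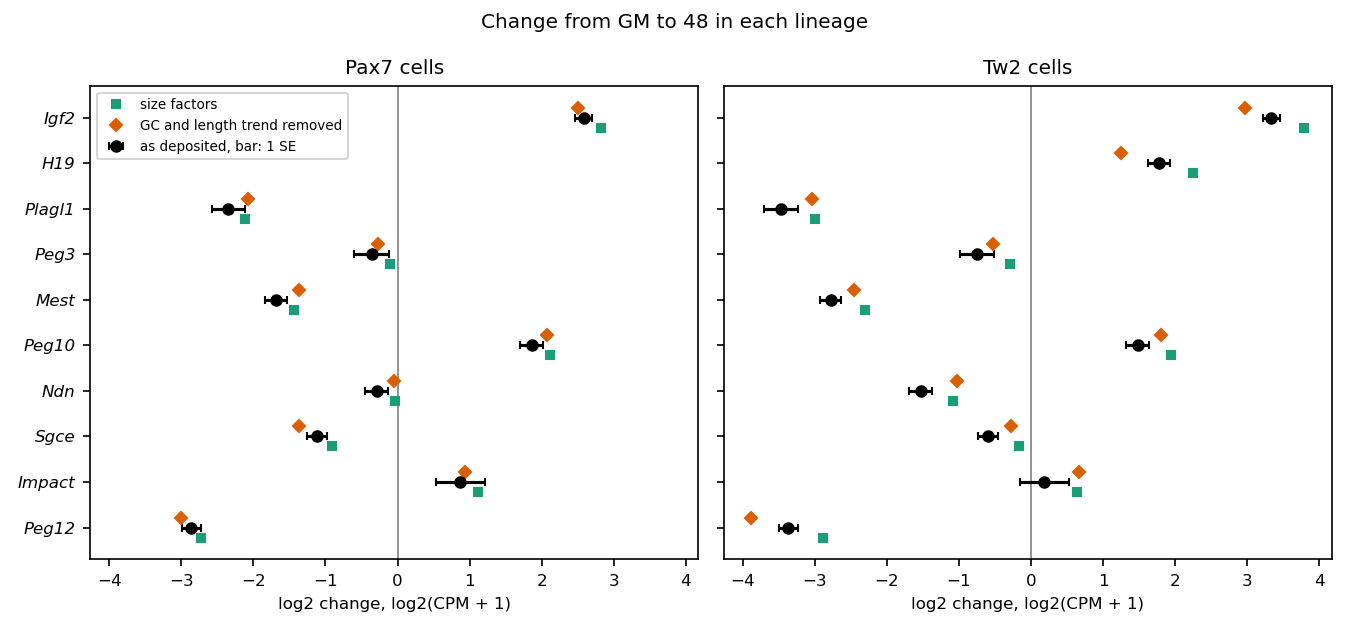
Log2 change from GM to 48, on log2(CPM + 1), of each member in Pax7 cells (left) and Tw2 cells (right), with 1 SE for the deposited scale (circles) and without error bars for size factors (squares) and for the GC and length trend removed (diamonds). Igf2 and Peg10 lie to the right and Plagl1, Mest and Peg12 to the left in both panels, and H19 has no value in Pax7 cells.

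Of 23 genes listed for the insulin-like growth factor pathway 11 were in the table. All 11 were called from GM to 48 in both lineages with the same direction in each, 5 higher (45.5%, against 33.2% of all genes) and 6 lower (54.5% against 39.4%). Igf1 and Pappa2 were under 10 CPM in every GM library, and Irs2 was in every 48 library. Each of these is in the table only through the other culture, so its direction was fixed by that. Higher were the ligand Igf1, the receptor Igf2r that takes up and degrades Igf2, the protease Pappa2 that frees ligands from binding proteins, Stc2, an inhibitor of this protease family, and Igdcc4, a receptor of the DCC family listed for its name. Pappa2 had a CPM of 0.135 and 0.386 in Pax7_GM and 14.7 and 17.7 in Pax7_48, and of 0.329 and 0.0885 in Tw2_GM and 71.9 and 66 in Tw2_48. The GM values are a few reads per library, near the limit of 3 reads, so the pseudocount bears on the size of the log2 changes. These were 3.77 ± 0.17 (limma adjusted p = 3.63e-07; 2.01 to 4.47 over the alternatives) and 5.86 ± 0.17 (adjusted p = 2.39e-08; 3.83 to 6.63), called under every alternative run. Igf2r, itself imprinted in the mouse, rose by 1.07 ± 0.14 in Pax7 cells and 1.94 ± 0.14 in Tw2 cells (adjusted p = 0.000145 and 2.98e-06), and Igf1 by 2.34 ± 0.23 and 2.56 ± 0.23 (adjusted p = 2.74e-05 and 1.23e-05) from 1.3 and 1.73 CPM in the GM means.

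Lower at 48 were the receptor Igf1r, the adaptors Irs1 and Irs2, the binding proteins Igfbp2 and Igfbp7 and the RNA-binding protein Igf2bp2, which binds Igf2 mRNA. Irs2 had a log2 change of −1.62 ± 0.16 in Pax7 cells and −2.12 ± 0.16 in Tw2 cells (limma adjusted p = 2.38e-05 and 3.59e-06). Igfbp7 had a CPM of 124 and 144 in Tw2_GM and 14.1 and 14.9 in Tw2_48, and of 33.5 and 32.8 in Pax7_GM and 22.8 and 16.1 in Pax7_48. Its fall was larger in Tw2 cells, by −2.36 ± 0.25 (adjusted p = 0.00072). With size factors Igf1r was no longer called in Pax7 cells (−0.33) nor Igfbp2 in Tw2 cells (−0.16). Between the lineages 4 of the 11 were higher and 2 lower in Tw2_GM, where 48.7% and 26% of all genes were, and 4 higher and 1 lower in Tw2_48, against 43.3% and 22.1%. With size factors these counts were 2 and 5, and 2 and 4. On that scale 1393 of all 5457 genes were higher and 2944 lower in GM. At 48 these were 944 and 2634 of 5452.

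Of 61 symbols listed for other imprinted genes 21 were in the table. From GM to 48, 14 were higher and 3 lower in Pax7 cells, against 38.8% and 40.5% of all genes. In Tw2 cells 12 were higher and 5 lower, against 35.3% and 48.8% of all genes. Their medians were 0.8 and 0.95, against 0.01 and −0.49 over all genes. In both lineages 12 were called higher (57.1%, against 33.2% of all genes) and 3 lower (Blcap, Inpp5f and Axl, 14.3% against 39.4%). Of the 12, Zdbf2, Ddc and Gab1 were under 10 CPM in every GM library. They are in the table only through the 48 libraries, so their direction was fixed by that. Cdkn1c, the inhibitor of cyclin-dependent kinases p57 that holds differentiating myoblasts out of the cell cycle, changed most of these. It had a CPM of 17.6 and 11.2 in Pax7_GM and 1141 and 1291 in Pax7_48, and of 6.49 and 5.22 in Tw2_GM and 1431 and 1416 in Tw2_48. Every 48 library exceeded every GM library by a wide margin, with log2 changes of 6.33 ± 0.21 (limma adjusted p = 1.96e-07) and 7.71 ± 0.21 (adjusted p = 1.85e-08). Zdbf2, a zinc finger gene, rose by 3.92 ± 0.22 and 4.62 ± 0.22, and Ddc, the decarboxylase of dopamine and serotonin synthesis, by 2.97 ± 0.13 and 4.12 ± 0.13. Axl, a receptor tyrosine kinase, fell, with changes of −2.67 ± 0.12 and −3.4 ± 0.12. Between the lineages 7 of the 21 were higher and 8 lower in Tw2_GM (48.7% and 26% of all genes), and 10 higher and 3 lower in Tw2_48 (43.3% and 22.1% of all genes). Usp29, among the higher in both cultures, is in the table only through the Tw2 libraries. With size factors the counts were 4 and 14, and 4 and 10. On that scale 1393 of all 5457 genes were higher and 2944 lower in GM. At 48 these were 944 and 2634 of 5452.

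**Figure D5:**
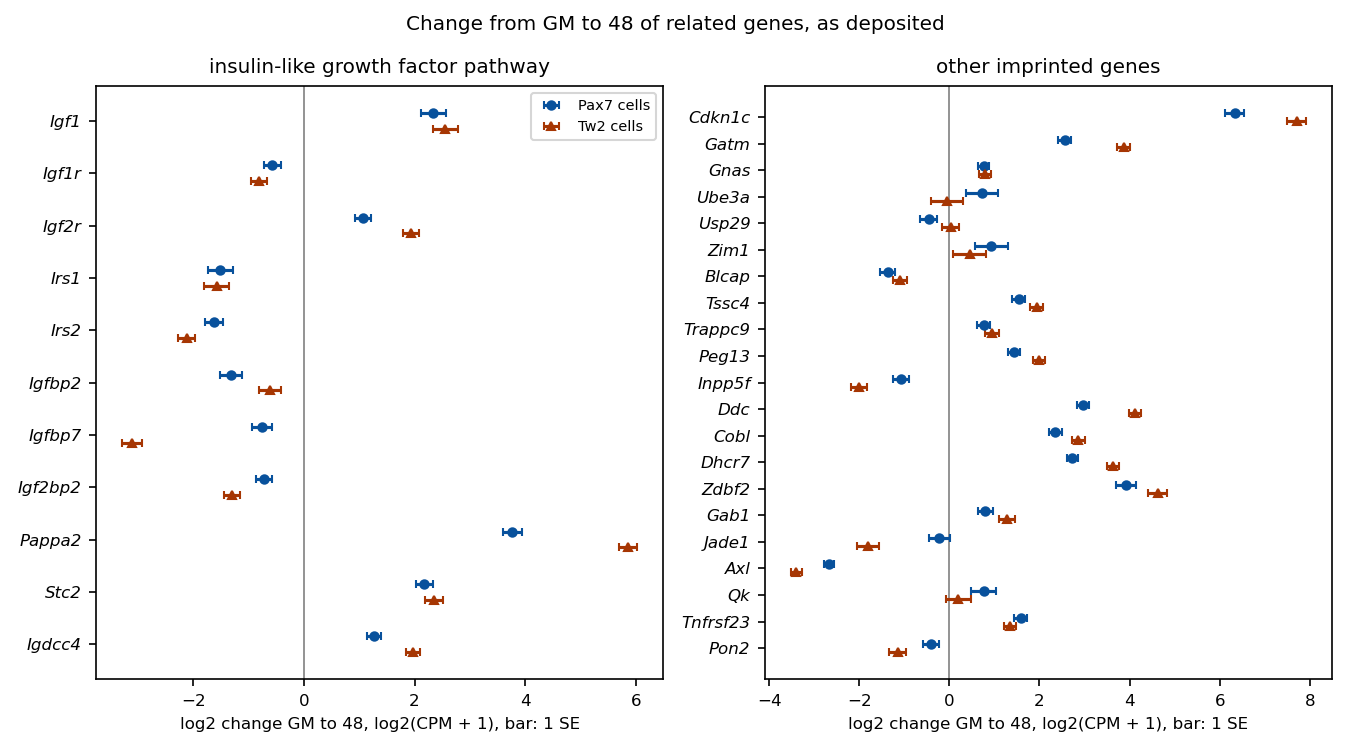
Log2 change from GM to 48 with 1 SE, on log2(CPM + 1), in Pax7 cells (circles) and Tw2 cells (triangles) for the 11 listed genes of the insulin-like growth factor pathway (left) and the 21 other imprinted genes (right). Pappa2 (3.77 and 5.86) and Cdkn1c (6.33 and 7.71) lie farthest to the right, and every gene on the left has both points on the same side of 0.

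Beside Peg3, neighbours within 200 kb of a member were in the table for H19, Igf2 or both (Tnnt3, Tnni2 and Ctsd), Mest (Cep41), Sgce (Col1a2) and Plagl1 (Ltv1, Phactr2, Stx11 and Utrn). With Usp29 and Zim1 these are 11 genes, of which 4 were called higher at 48 in both lineages and 1 lower (36.4% and 9.09%, against 33.2% and 39.4% of all genes). In Tw2_GM 6 were higher and 4 lower than in Pax7_GM, against 48.7% and 26% of all genes. In Tw2_48 5 were higher and 2 lower than in Pax7_48, against 43.3% and 22.1% of all genes. Usp29, among the higher in both cultures, is in the table only through the Tw2 libraries. With size factors the GM counts were 3 and 6, against 1393 and 2944 of all 5457 genes. Tnnt3, a fast troponin T gene 59520 bases from H19, rose by 3.46 ± 0.13 in Pax7 cells and 5.15 ± 0.13 in Tw2 cells (limma adjusted p = 2.31e-07 and 1.47e-08). Tnni2, a fast troponin I gene 131119 bases from H19, rose by 3.73 ± 0.18 and 5.99 ± 0.18 (adjusted p = 4.41e-07 and 2.49e-08). Cep41, a centrosomal gene 29798 bases from Mest, was the 1 neighbour called lower in both lineages, with changes of −1.33 ± 0.13 and −1.59 ± 0.13 (adjusted p = 1.96e-05 and 5.11e-06). It was under 10 CPM in every 48 library, so it is in the table only through the GM libraries and its fall was fixed by that. Utrn, the utrophin gene 191139 bases from Plagl1, was higher in Tw2 cells by 1.54 ± 0.24 in GM and 1.46 ± 0.24 at 48 (adjusted p = 0.000592 and 0.00182). Col1a2, a type I collagen chain 132806 bases from Sgce, had a CPM of 3.61 and 3.28 in Tw2_GM against 424 and 387 in Pax7_GM, a log2 difference of −6.51 ± 0.44 (adjusted p = 1.88e-05).

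Over the 4 centred log2 group means, the genes closest to Igf2 were Ccdc134 (distance 0.11 on the log2 scale), Cyp51 (0.15), Zc2hc1c (0.2), Rapgefl1 (0.21) and Rassf3 (0.22). Among those closest to H19 were Sema6c (0.11), Dact3 (0.2), Dcaf6 (0.2) and Otub2 (0.21). Predicted gene models were left out of this ranking, and the likeness rests on 4 group means alone. H19 stood at rank 355 from Igf2, and Igf2 at rank 757 from H19, at a distance of 1.19.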

How the data were processed

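RNA of 8 libraries was sequenced. Per the submitters' processing notes, TopHat2 2.0.0, DESeq2 1.6.3 and GRCm38 (mm10) were used, with no role given; the counting tool, annotation and strand handling are not given in the sources used here. The authors deposited 1 table of mean CPM per group, with 3 log2 fold changes against Tw2_GM that equal log2((mean + 1)/(Tw2_GM mean + 1)) to within 1.4e-11. Per the labels' protocols RNA was extracted from freshly sorted cells, while the sample source names cultured cells.

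Each mean CPM was taken apart into the whole read counts of its 2 libraries; 5452 of 5457 genes had 1 solution in every group, and H19 did not in Pax7_48. The reads of a pair differed by more than counting noise (chi-square per degree of freedom 4.03 to 21.4). The unit being CPM, limma 3.58.1 (R 4.3.3) was run on log2(CPM + 1) over all 8 libraries with 1 mean per group, eBayes without trend and Benjamini-Hochberg adjustment over all genes, so each SE pools the spread of all groups. Called means adjusted p under 0.05. No gene had a mean under 1 CPM, the filter used. Alternatives were pseudocounts of 0.5 and 5, a filter at 10 CPM and none, size factors and quantile normalization. Further ones were removal of a trend in transcript GC content and length (known for 99.6% of genes) and eBayes with trend. Fits of the compared groups alone and leaving out each library were run too. Both scalings and the trend were computed over the genes of the deposited table alone, which were selected for a difference from Tw2_GM. They are therefore not scalings over all measured genes. The 4 H19 solutions were added after seeing the data. The splitting of the means and the fit were tested on simulated data. The members and the lists were chosen with earlier results of these data known. Named are all members, all listed pathway genes, other imprinted genes and neighbours within 200 kb by count with examples, and the 5 nearest patterns, of which 1 is not reported here.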

Additional observations from a re-analysis of the deposited data

Results flagged for a closer look

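The change from GM to 48 differed between the lineages in 4 of 9 members, against 18.7% of all genes, by a test of the difference itself (limma, 2 libraries per group, adjusted over all genes). The difference, Tw2 minus Pax7, was 0.75 ± 0.18 on the log2 scale for Igf2 (adjusted p = 0.0222), which rose in both. It was −1.11 ± 0.32 for Plagl1 (adjusted p = 0.0484) and −1.09 ± 0.21 for Mest (adjusted p = 0.00957), which fell in both, and −1.25 ± 0.22 for Ndn (adjusted p = 0.00743), which fell in Tw2 cells. The calls of Igf2 and Plagl1 were lost without any 1 library of Pax7_48, Tw2_GM or Tw2_48 (adjusted p = 0.0618 to 0.103 and 0.112 to 0.171), and that of Mest without the deeper Tw2_GM or the shallower Tw2_48 library (adjusted p = 0.0502 and 0.0572). The median of this difference over all genes was −0.22. No group has 4 libraries, so no single library could be tested as an outlier.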

How the results depend on the processing

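Of 798 values of members under alternative settings, 710 kept their direction and side of the threshold, 58 lost the call, 13 gained it and 17 changed sign. Some settings could not move a log2 value, such as running without a filter or leaving out a library of a group not compared. Under size factors, quantile normalization and trend removal, 37, 36 and 38 of 47 values kept both. In Tw2_GM minus Pax7_GM, the sign changed for Igf2 (0.34 with the GC and length trend removed), H19 (−0.32 with size factors), Peg12 (−0.41 with size factors, −0.15 with quantile normalization) and Sgce (−0.81 with size factors, −0.49 with quantile normalization, −1.48 with the trend removed, and −0.09 to 0.11 when 1 library was left out, with −0.09 without the deeper Pax7_GM and −0.07 without the deeper Tw2_GM library). In Tw2_48 minus Pax7_48 it changed for Igf2 (−0.23 with size factors), Sgce (−0.08 with size factors, −0.4 with the trend removed) and Peg12 (0.19 with quantile normalization, 0.54 with the trend removed). From GM to 48 it changed for Peg3 in Pax7 cells (−0.72 to 0.0 when 1 library was left out, 0.0 being without the shallower Pax7_GM library) and H19 in Tw2 cells (0.0 with quantile normalization, by its construction), and for the difference of the changes in Peg12 (0.34 with quantile normalization). Size factors and quantile normalization moved the GM median over all genes by −0.84 and −0.47, the second not by a like amount in every gene; the cause of the other changes was not tested. Leaving out 1 library at a time, 6 to 9 members were called in GM, 6 to 8 at 48, 6 to 8 in Pax7 cells, 8 to 9 in Tw2 cells and 1 to 6 for the difference of the changes, in fits with fewer libraries. A lone library is assumed there to vary like the other groups. No paired analysis was possible because the columns are group means and carry no replicate numbers. Depth limits Peg12 at 48 most, with 18 to 31 reads per library.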
